A study of Mus musculus with 4 samples.

Results

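Integrins and laminins were followed in whole lungs of mouse embryos that carried an Sftpc-Nmyc transgene and in wild-type lungs. The set was every probe set annotated with a single gene symbol of the form Itga, Itgb, Lama, Lamb or Lamc plus a subunit name, with binding proteins left out. It held 58 of 22690 probe sets and stood for 33 of 12393 genes. Of these, 22 were counted as integrin subunits by their names, Itgb2l included, and 10 were laminin chains. Itgbl1 was counted apart, since it encodes a protein related to integrin beta chains that is not a receptor subunit. Itga1, Itga10, Itga11, Itgad and Itgb8 had no such probe set and were not analysed here.

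The comparison rests on 4 Affymetrix arrays, 2 from Sftpc-Nmyc lungs and 2 from wild-type lungs, described as biological replicates. The transgene fuses mouse Nmyc1 (Mycn, a growth-promoting transcription factor of the MYC family) to the fluorescent protein EGFP under the control of a 3.7 kb SFTPC promoter and enhancer from human, which is active in the lung epithelium and not in vessels or stroma. The design text describes 4 transgenic embryos, each made by injection of fertilised F2 eggs of C57BL/6J and DBA/2J parentage, so they are founders without a shared insertion site, and it does not say which of them gave the arrays. It dates these embryos slightly later than the day 18 in the titles of both groups. Whether the groups were matched in age is not settled, so a possible difference in age cannot be told apart from genotype. The background and sex of the wild-type embryos are not stated.

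Integrins are receptors made of 1 alpha and 1 beta subunit that hold cells to the extracellular matrix and signal from it. Laminins are the cross-shaped trimers of an alpha, a beta and a gamma chain that build the sheet of the basement membrane under epithelium and around vessels and muscle. In the developing lung this sheet lies between the branching epithelium and the mesenchyme, and in the alveolus the epithelial and capillary sheets lie against each other. Much of the lung's laminin is bound by integrins that contain Itga3 or Itga6.

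The transgene was read by the brightest Mycn probe set at deposited signals of 455.2 and 356 in Sftpc-Nmyc lungs, against 34.7 and 32.1 in wild-type lungs. A second was lower, at 25.1 and 27.2 in Sftpc-Nmyc lungs and 78.7 and 63.5 in wild-type lungs (-1.20 ± 0.27, limma adjusted p = 0.015 over all probe sets). The last was not called, at 61.8 and 43.8 in Sftpc-Nmyc lungs and 57.3 and 18.8 in wild-type lungs (0.64 ± 0.45, limma adjusted p = 0.33 over all probe sets), and which of the 3 lie in the transgene's cDNA was not examined. Array medians ran from 65.45 to 70.8. The highest signal of 27 Bacillus control probe sets, 73.4, is used here as a guide to the level at which a signal becomes hard to tell from background. Xist stood at 59.3 and 63.9 in Sftpc-Nmyc lungs and at 1707.8 and 1506.1 in wild-type lungs, so the sex of the embryos and genotype cannot be told apart in any comparison made here. Defining markers of lung epithelium were measured on every array, with Sftpc, the surfactant protein C gene, at 5788.1 and 4817.4 in Sftpc-Nmyc lungs and at 9566.4 and 9545.8 in wild-type lungs.

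Of the 33 genes, 24 were bright enough to test, and 16 of them were lower in Sftpc-Nmyc lungs while 0 were higher (limma, Benjamini-Hochberg adjusted p under 0.05 over 8675 genes). At an unadjusted p under 0.05 the counts were 17 lower and 0 higher. Over all genes tested, 30.4% were called, 15.7% lower and 14.7% higher, against 66.7% of these genes called lower. All 24 had a negative log2 fold change, with values from -1.5 (Lama4) to -0.18 (Lamb2). Their median was -0.67, beside a median of -0.02 over all genes tested. Because a member passes the brightness filter more easily when it is high in at least 1 group, the 24 do not stand for the whole family, and the remaining 9 genes are described at the end. In whole lung, fewer cells of a type and less RNA per cell cannot be told apart.

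**Figure D1:**
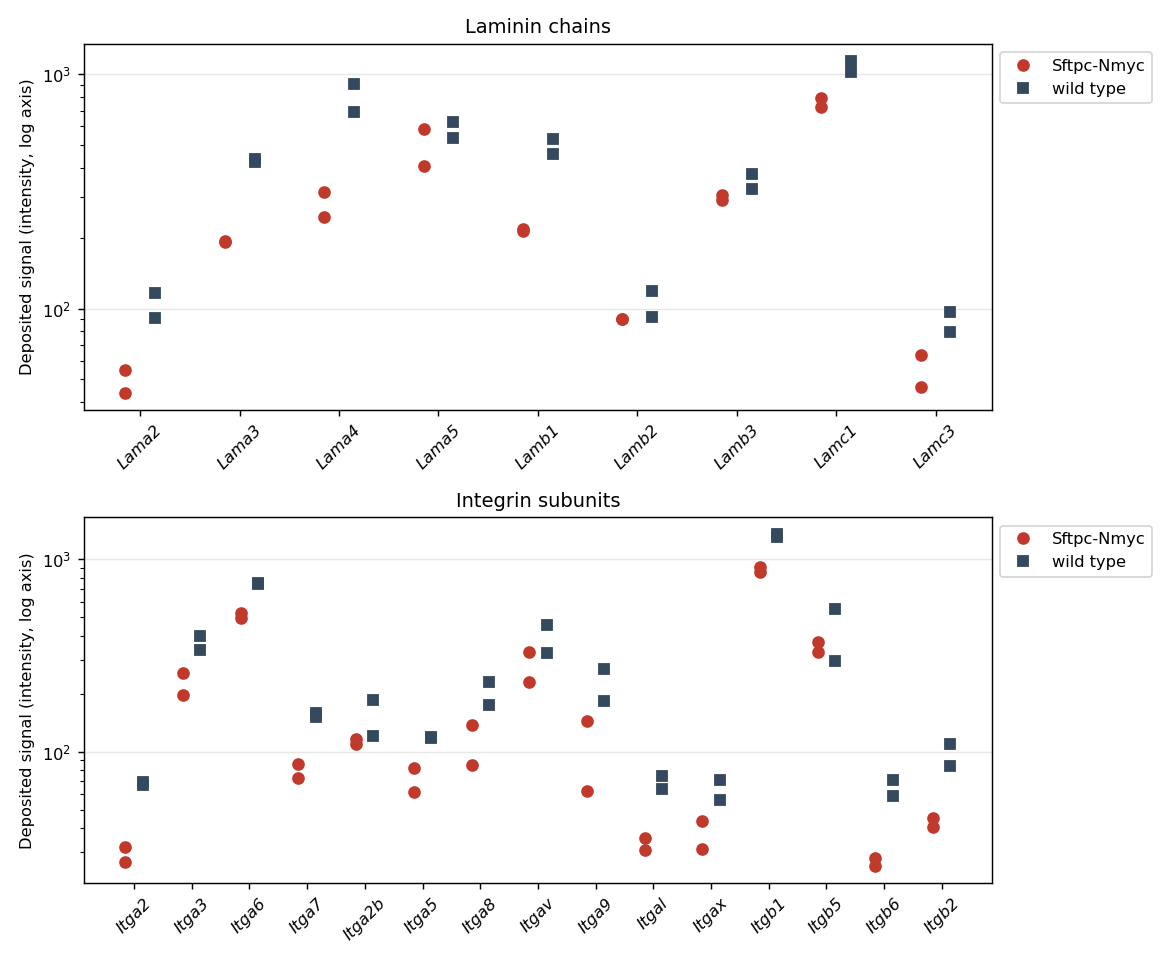
Deposited signal (intensity, log axis) of the 24 tested genes on each array, laminin chains above and integrin subunits below, with Sftpc-Nmyc arrays as circles to the left and wild-type arrays as squares to the right of each gene. The groups lie apart for genes such as Lama3 (194.9 and 191.8 against 435.8 and 424.5) and overlap for Lama5, Itgav and Itgb5.

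The number of calls depended on single arrays. Leaving out wild-type replicate 1 left 7 genes lower (8.76% of all genes), wild-type replicate 2 left 4 (7.57%), Sftpc-Nmyc replicate 1 left 7 (11.8%) and Sftpc-Nmyc replicate 2 left 10 (10.4%). Lama3, Lama4 and Lamb1 were called in each of these 4 fits and in every other alternative run. With no brightness filter, 8 genes were lower (8.42% of all genes).

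Among the laminin alpha chains, Lama4, Lama3 and Lama2 fell and Lama5 was not called. Lama4, the alpha chain of vessel walls and mesenchyme, had deposited signals of 245.7 and 314.4 in Sftpc-Nmyc lungs, against 693.1 and 905.6 in wild-type lungs. It was 2.82-fold lower, a log2 fold change of -1.5 ± 0.18 (SE, n = 2 per group, limma adjusted p = 0.0012), and its 4 values left a wide gap between the groups. The other Lama4 probe set read 147 and 165.5 in Sftpc-Nmyc lungs and 297.9 and 354.2 in wild-type lungs, and it too was lower, at -1.03 ± 0.16 (limma adjusted p = 0.0043 over all probe sets).

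Lama3, the alpha chain that pairs with Lamb3 in the laminin that anchors epithelium, had signals of 194.9 and 191.8 in Sftpc-Nmyc lungs, against 435.8 and 424.5 in wild-type lungs. Replicates of either group differed little beside the distance between the groups. The log2 fold change was -1.14 ± 0.14 (limma adjusted p = 0.0013), and without any 1 array it stayed between -1.16 and -1.12. Lama2, the alpha chain of muscle and mesenchymal basement membrane, whose loss causes a muscular dystrophy, had signals of 43.7 and 54.8 in Sftpc-Nmyc lungs, against 91.4 and 117.2 in wild-type lungs. Its log2 fold change was -0.95 ± 0.23 (limma adjusted p = 0.017), and it was no longer called when wild-type replicate 2 or Sftpc-Nmyc replicate 1 was left out (limma adjusted p up to 0.11).

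Lama5, the main alpha chain of the basement membrane under lung epithelium, which mouse lungs need for normal lobes and alveoli, had signals of 586.1 and 408 in Sftpc-Nmyc lungs, against 532.3 and 624 in wild-type lungs. The groups overlapped, and the log2 fold change was -0.25 ± 0.18 (limma adjusted p = 0.33). On its other probe set the groups overlapped as well, at 270.9 and 314.9 in Sftpc-Nmyc lungs and 211 and 343.1 in wild-type lungs, a log2 fold change of 0.12 ± 0.23. Lama1, the alpha chain of early embryonic basement membranes, read 1.1 and 2.2 in Sftpc-Nmyc lungs and 3.2 and 3.6 in wild-type lungs, too dim to test.

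Of the beta chains, Lamb1 fell while Lamb2 and Lamb3 were not called. Lamb1, the widespread beta chain of embryonic laminins, had signals of 213.6 and 218.3 in Sftpc-Nmyc lungs, against 456.2 and 529.9 in wild-type lungs. The fall was 2.27-fold, or -1.18 ± 0.15 on the log2 scale (limma adjusted p = 0.0013). Of its other 2 probe sets, 1 had nearly the same fold change (-1.16 ± 0.17, limma adjusted p = 0.0032 over all probe sets) and the dimmest was not called (-0.48 ± 0.21, limma adjusted p = 0.13).

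Lamb2, the beta chain of mature vessel, kidney and synaptic basement membranes, had signals of 90.3 and 90.3 in Sftpc-Nmyc lungs, against 119.2 and 91.8 in wild-type lungs. Its log2 fold change was -0.18 ± 0.20 (limma adjusted p = 0.53). Lamb3, the epithelial partner of Lama3, had signals of 306.4 and 290.2 in Sftpc-Nmyc lungs, against 325.7 and 374.9 in wild-type lungs. It was slightly below wild type on both arrays without passing, at -0.22 ± 0.15 (limma adjusted p = 0.29).

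Lamc1, the gamma chain of most laminins, was the brightest laminin probe set, with 790.3 and 726.3 in Sftpc-Nmyc lungs, against 1023.5 and 1143.9 in wild-type lungs. The log2 fold change was -0.55 ± 0.12 (limma adjusted p = 0.014), and leaving out wild-type replicate 2 or Sftpc-Nmyc replicate 2 ended the call (limma adjusted p up to 0.095). Its dimmer probe set differed more, at 106.3 and 77.4 in Sftpc-Nmyc lungs and 238.7 and 241.9 in wild-type lungs, at -1.34 ± 0.20 on the log2 scale (limma adjusted p = 0.0032 over all probe sets). Both Lamc1 probe sets were lower, by different amounts. Lamc3, a gamma chain of restricted expression, had signals of 63.7 and 46.2 in Sftpc-Nmyc lungs, against 96.5 and 79.3 in wild-type lungs, and was not called (-0.59 ± 0.25, limma adjusted p = 0.11).

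**Figure D2:**
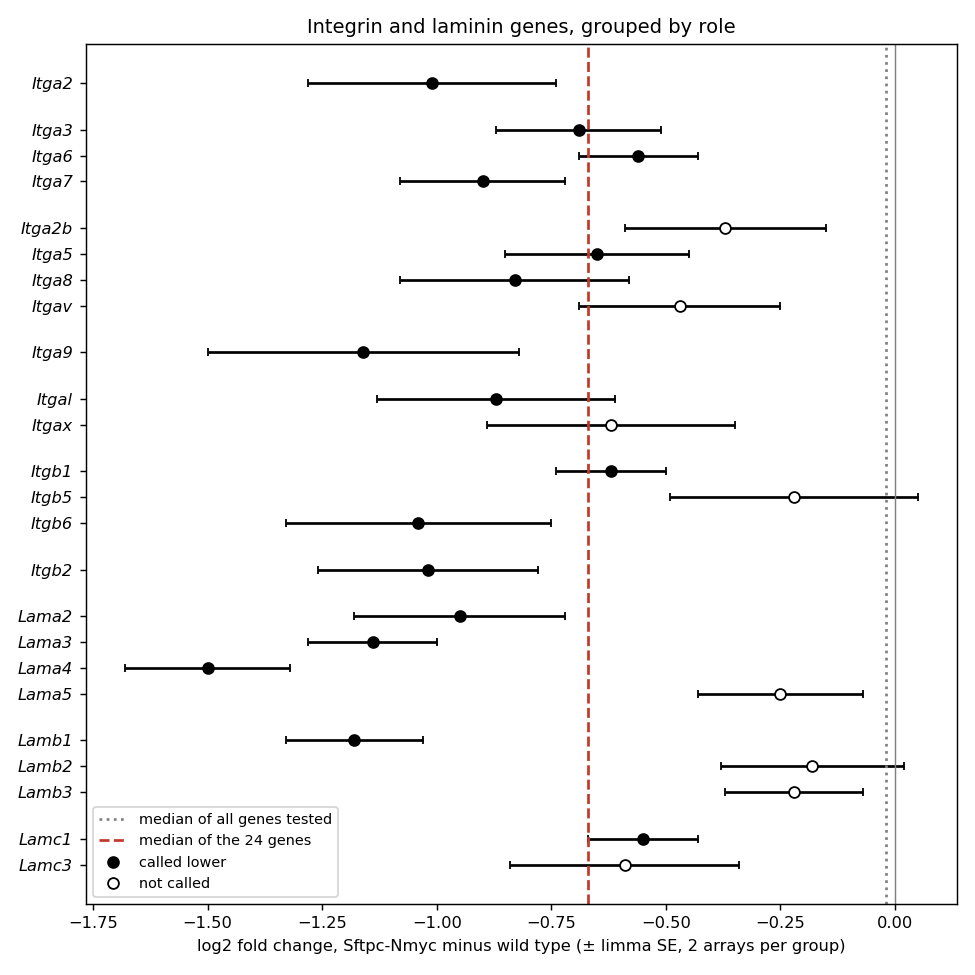
Log2 fold change, Sftpc-Nmyc minus wild type, of the 24 tested genes with limma standard errors (2 arrays per group), grouped by role, filled where called lower. Every point lies left of 0, from Lama4 at -1.5 to Lamb2 at -0.18, and the dashed line marks the median of -0.67 beside the dotted line at -0.02 for all genes tested.

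Laminin chains were also set against each other within each array. The within-array log2 ratio of Lama3 to Lamb3 was -0.64 and -0.59 in Sftpc-Nmyc lungs, against 0.43 and 0.19 in wild-type lungs, a difference of -0.92. For Lamb1 over Lama5, chains of the main epithelial laminin, the ratio was -1.42 and -0.90 in Sftpc-Nmyc lungs, against -0.23 and -0.23 in wild-type lungs, a difference of -0.93. Lama4 over Lama5, alternative alpha chains, gave a difference of -1.24 and Lamb1 over Lamb2, alternative beta chains, one of -1. Of the other 4 pairs computed, Itgb6 over Itgav differed by -0.56, Lamc1 over Lama5 by -0.29 and Itga6 over Itgb1 by 0.06 with groups apart, and Itgb5 over Itgav by 0.25 with overlapping groups. The groups did not overlap in the first 4 pairs either, but with 2 arrays against 2 an exact two-sided permutation test cannot go below p = 0.33, and the pairs were chosen with their values known. Such ratios compare changes between probe sets and say nothing of which chain is more abundant.

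The promoters of Lamb1, which fell, and Lama5, which was not called, are shown because both chains belong to the same trimer. The sequences run 5′ to 3′ on the gene's strand, from 250 bases before to 50 bases after the annotated start, and come from RefSeq on GRCm38.p6, at chr12:31265043-31265342, plus strand, and chr2:180225810-180226109, minus strand. Capitals mark GGGCGG or its complement, a GC box bound by SP1-type factors.
Lamb1: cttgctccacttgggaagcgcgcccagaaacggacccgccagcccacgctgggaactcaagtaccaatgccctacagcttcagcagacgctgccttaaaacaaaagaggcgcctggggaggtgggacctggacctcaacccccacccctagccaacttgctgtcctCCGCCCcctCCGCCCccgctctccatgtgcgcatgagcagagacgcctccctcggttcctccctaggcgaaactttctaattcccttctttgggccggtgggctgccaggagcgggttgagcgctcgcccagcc
Lama5: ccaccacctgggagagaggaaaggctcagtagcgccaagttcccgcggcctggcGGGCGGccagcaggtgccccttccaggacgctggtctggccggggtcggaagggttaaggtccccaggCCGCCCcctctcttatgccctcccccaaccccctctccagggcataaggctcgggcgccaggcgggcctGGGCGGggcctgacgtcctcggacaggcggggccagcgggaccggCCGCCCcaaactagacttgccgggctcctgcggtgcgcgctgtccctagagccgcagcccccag
Lamb1 held 2 GC boxes and Lama5 held 4. Over all 32851 windows of this length, 35.7% held at least 1. The genes described here had 24 windows from 21 genes, and 13 of these windows, from 12 genes, did. The E-box CACGTG, a palindrome bound by MYC and MAX, was in 7.15% of all windows and in 0 of these 24. That says only that these letters are absent from these windows.

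Integrins that bind laminin fell. Itga6, the laminin receptor subunit of epithelium and endothelium, had signals of 493.7 and 526.2 in Sftpc-Nmyc lungs, against 743.8 and 753.9 in wild-type lungs. Its log2 fold change was -0.56 ± 0.13 (limma adjusted p = 0.014), with -0.65 ± 0.16 on its other probe set (limma adjusted p = 0.021 over all probe sets). Itga3, which mouse lungs need for normal airway branching, had signals of 197.6 and 258 in Sftpc-Nmyc lungs, against 336.5 and 400.5 in wild-type lungs, a difference of -0.69 ± 0.18 on the log2 scale (limma adjusted p = 0.024), and a second tested probe set was not called (-0.59 ± 0.22, limma adjusted p = 0.087 over all probe sets). Itga7, the laminin receptor of muscle, had signals of 86.7 and 73.2 in Sftpc-Nmyc lungs, against 152 and 159.2 in wild-type lungs, a difference of -0.90 ± 0.18 on the log2 scale (limma adjusted p = 0.0086). None of the 3 overlapped between groups, where 31.0% of all measured genes lay below wild type without overlap on the quantile-normalized scale. The Itga6 and Itga3 calls each ended without wild-type replicate 1, wild-type replicate 2 or Sftpc-Nmyc replicate 1, and that of Itga7 ended once wild-type replicate 2 was left out (limma adjusted p up to 0.15 for Itga3, 0.077 for Itga6 and 0.058 for Itga7).

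Itgb1, the beta subunit shared by most matrix-binding integrins, had the highest signals of the integrins, 860 and 910.8 in Sftpc-Nmyc lungs, against 1354.5 and 1302.7 in wild-type lungs. The log2 fold change was -0.62 ± 0.12 (limma adjusted p = 0.0067), and leaving out wild-type replicate 1 ended the call (limma adjusted p = 0.053). A second bright Itgb1 probe set read 663.9 and 700.6 in Sftpc-Nmyc lungs and 740.6 and 818.9 in wild-type lungs, and it was not called (-0.22 ± 0.13, limma adjusted p = 0.26). With the mean of all 6 Itgb1 probe sets, several of them near background, the gene was not called either. Itgb4, the partner of Itga6 in hemidesmosomes, was too dim to enter the gene test, at 30.9 and 35.9 in Sftpc-Nmyc lungs and 30.1 and 26.1 in wild-type lungs.

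Receptors for other matrix proteins were lower or not called. Itga9, which binds tenascin and is needed for lymphatic valves, had signals of 62.3 and 143.7 in Sftpc-Nmyc lungs, against 267.9 and 182.7 in wild-type lungs. The fold change was -1.16 ± 0.34 on the log2 scale (limma adjusted p = 0.038). Its replicates differed widely, the call ended without either wild-type array or Sftpc-Nmyc replicate 1 (limma adjusted p up to 0.22), and the fold change ranged from -1.7 to -0.61 over the fits that left out 1 array. A second probe set of Itga9 had less spread beside its difference, at 22.4 and 41.3 in Sftpc-Nmyc lungs and 128.5 and 127 in wild-type lungs (-1.83 ± 0.27, limma adjusted p = 0.0034 over all probe sets).

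Itga8, a fibroblast and smooth muscle subunit that binds nephronectin, had signals of 138.2 and 85.6 in Sftpc-Nmyc lungs, against 174.4 and 230.1 in wild-type lungs. Its log2 fold change was -0.83 ± 0.25 (limma adjusted p = 0.040). Itga5, the fibronectin receptor subunit, had signals of 62 and 81.9 in Sftpc-Nmyc lungs, against 118.2 and 118.7 in wild-type lungs, a difference of -0.65 ± 0.20 on the log2 scale (limma adjusted p = 0.041). The other Itga5 probe set was not called (-0.41 ± 0.22, limma adjusted p = 0.21 over all probe sets), nor was the mean of both (-0.53, limma adjusted p = 0.067). Itga2, a collagen receptor subunit of epithelium and platelets, had signals of 32.1 and 26.8 in Sftpc-Nmyc lungs, against 69.4 and 67 in wild-type lungs, a difference of -1.01 ± 0.27 on the log2 scale (limma adjusted p = 0.026). Each of these 3 genes lay below wild type on both Sftpc-Nmyc arrays, as did 31.0% of all measured genes on the quantile-normalized scale. The Itga5 and Itga2 calls ended whichever of the 4 arrays was left out, and that of Itga8 ended without either wild-type array or Sftpc-Nmyc replicate 2 (limma adjusted p up to 0.18, 0.11 and 0.22 for Itga5, Itga2 and Itga8), and all Itga2 signals lay under the Bacillus level of 73.4.

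The subunits of the receptors that bind vitronectin and activate latent TGF-beta gave a less even picture. Itgb6, the epithelial beta subunit that activates TGF-beta together with Itgav, had signals of 28 and 25.3 in Sftpc-Nmyc lungs, against 58.5 and 70.9 in wild-type lungs. It fell by 1.04 ± 0.29 on the log2 scale (limma adjusted p = 0.029), with a like value of -0.96 ± 0.29 on its other probe set, but all signals were under 73.4 and the call ended whichever array was left out (limma adjusted p = 0.067 to 0.15). Itgav, their shared alpha subunit, had signals of 328.4 and 231.2 in Sftpc-Nmyc lungs, against 326 and 454.3 in wild-type lungs. The groups overlapped and it was not called (-0.47 ± 0.22, limma adjusted p = 0.14). A dimmer Itgav probe set was called lower, at no more than 22.4 in Sftpc-Nmyc lungs and at 64.4 and 68.2 in wild-type lungs (-1.39 ± 0.28, limma adjusted p = 0.011 over all probe sets).

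Itgb5, another partner of Itgav, depended on the probe set. Its brightest probe set had 330.7 and 370.6 in Sftpc-Nmyc lungs, against 553 and 296.7 in wild-type lungs, and the wild-type values lay on either side of the Sftpc-Nmyc values (-0.22 ± 0.27, limma adjusted p = 0.57). The next brightest had 225.6 and 224.2 in Sftpc-Nmyc lungs, against 403.5 and 478.4 in wild-type lungs, with close replicates and no overlap (-0.96 ± 0.15, limma adjusted p = 0.0040 over all probe sets). A dimmer one read 68.3 and 77.8 in Sftpc-Nmyc lungs and 199.5 and 284.2 in wild-type lungs (-1.61 ± 0.21, limma adjusted p = 0.0022 over all probe sets). With the mean of its 4 probe sets Itgb5 was called lower, at -0.95 ± 0.16 (limma adjusted p = 0.0048), as was Itgav with the mean of its 3 (-0.85 ± 0.20, limma adjusted p = 0.019).

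Over all probe sets of the family, 42 of 58 were bright enough to test, 25 were called lower and 0 higher, beside 12.9% of all tested probe sets called lower and 13.5% higher. Of the 12 genes with more than 1 tested probe set, Itga6, Itga9, Itgb6, Lama4 and Lamc1 were called lower on every tested probe set. Probe sets of 1 gene share its RNA and are not replicates, and their positions in the transcripts were not examined.

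**Figure D3:**
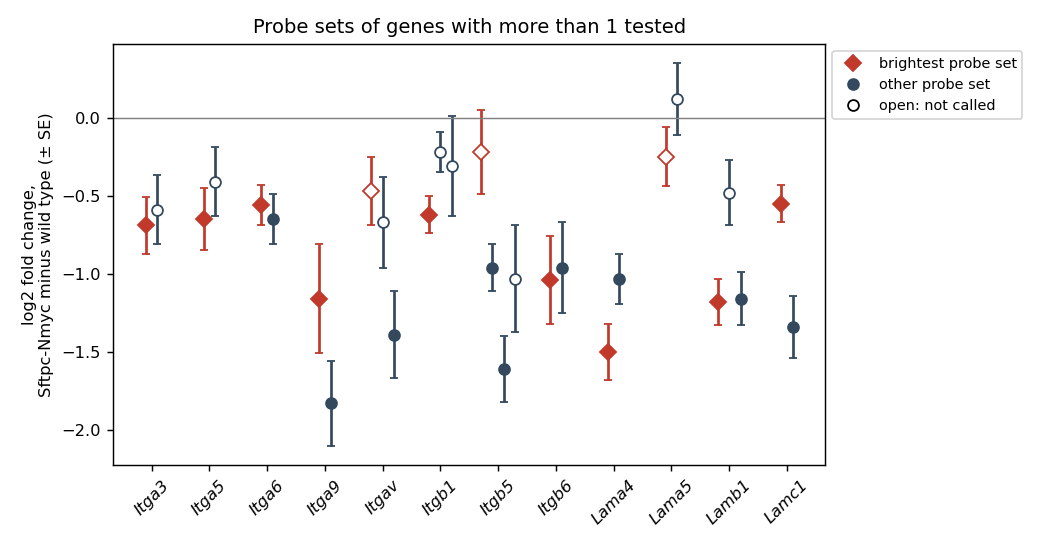
Log2 fold change, Sftpc-Nmyc minus wild type, with limma standard errors for each tested probe set of the 12 genes that had more than 1, with the brightest as a diamond and open symbols where not called. The 4 probe sets of Itgb5 spread from -1.61 to -0.22, while those of Itga6 lie close together at -0.65 and -0.56.

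The promoters of Itgb1, the subunit on which most of these receptors depend, and Itga9, the tested integrin gene with the largest fall when all 4 arrays were used, are shown on the same build and in the same window, at chr8:128685404-128685703, plus strand, and chr9:118711442-118711741, plus strand. Capitals mark the GC box GGGCGG in Itgb1 and TGANTCA, the AP-1 element, in Itga9.
Itgb1: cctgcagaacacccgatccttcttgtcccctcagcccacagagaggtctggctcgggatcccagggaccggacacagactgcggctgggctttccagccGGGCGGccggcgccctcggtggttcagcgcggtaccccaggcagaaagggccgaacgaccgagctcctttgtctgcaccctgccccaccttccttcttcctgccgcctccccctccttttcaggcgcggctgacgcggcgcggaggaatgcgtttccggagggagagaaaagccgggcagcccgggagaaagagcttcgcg
Itga9: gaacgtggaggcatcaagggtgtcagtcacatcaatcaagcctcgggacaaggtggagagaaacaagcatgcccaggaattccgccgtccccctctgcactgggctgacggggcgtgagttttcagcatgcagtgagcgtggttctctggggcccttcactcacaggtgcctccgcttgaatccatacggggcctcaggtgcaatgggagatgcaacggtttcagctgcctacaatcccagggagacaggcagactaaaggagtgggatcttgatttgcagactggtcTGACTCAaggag
The AP-1 letters, searched on both strands, were in 7.81% of all windows and in 3 of the 24 windows of the genes described here. These were the windows of Itga3, Itga9 and Itgax, of which the first and second genes were called lower. No peak or binding data bear on these matches.

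Among integrins of blood cells, Itgb2 and Itgal were lower, and Itgax and Itga2b were not called. Itgb2, the beta subunit of a main group of leukocyte integrins, had signals of 40.5 and 45 in Sftpc-Nmyc lungs, against 84.3 and 110.2 in wild-type lungs. The difference was -1.02 ± 0.24 on the log2 scale (limma adjusted p = 0.015). Itgal, its partner on lymphocytes, had signals of 35.4 and 30.9 in Sftpc-Nmyc lungs, against 74.3 and 63.6 in wild-type lungs, a difference of -0.87 ± 0.26 on the log2 scale (limma adjusted p = 0.038). Both lay below wild type on both arrays, but the Itgal call ended whichever array was left out and that of Itgb2 ended without wild-type replicate 2 or Sftpc-Nmyc replicate 1 (limma adjusted p up to 0.16 and 0.098).

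Itgax, its partner on dendritic cells and alveolar macrophages, was not called (-0.62 ± 0.27, limma adjusted p = 0.12), at 31.1 and 43.6 in Sftpc-Nmyc lungs and 71.2 and 56.4 in wild-type lungs. Itga2b, the platelet fibrinogen receptor subunit, was not called either (-0.37 ± 0.22, limma adjusted p = 0.24), at 116.1 and 109.8 in Sftpc-Nmyc lungs and 185.4 and 120.7 in wild-type lungs. Macrophage markers moved in the same direction as Itgb2: of 11 tested, 7 were lower and 0 higher, beside 15.7% of all genes called lower. The summed signal of the 13 measured was 1771 and 1646 in Sftpc-Nmyc lungs, against 5338 and 6818 in wild-type lungs. Most of the wild-type sum came from Lyz2, at 528.3 and 530.7 in Sftpc-Nmyc lungs and 3047.4 and 4359.6 in wild-type lungs. Adgre1, Cd14, Cd68 and Mrc1 were not called. Neutrophil markers were lower in 4 of 7, and Csf3r, Mpo and S100a9 were not called. Their summed signal over 9 measured was 405.1 and 372.8 in Sftpc-Nmyc lungs, against 1002 and 1045 in wild-type lungs. Lcn2 alone gave 50.5 and 38.3 of it in Sftpc-Nmyc lungs and 270.9 and 502.7 in wild-type lungs. Platelet markers were lower in 2 of 4, with a summed signal over 6 measured of 414.1 and 337.9 in Sftpc-Nmyc lungs, against 809.6 and 661.1 in wild-type lungs. Of the lymphocyte markers 10 were measured and only Ptprc was bright enough to test. It was not called (-0.50 ± 0.25, limma adjusted p = 0.17), and this 1 gene cannot speak for the rest of the list. The summed signal of the list was 192.6 and 213.4 in Sftpc-Nmyc lungs, against 282.6 and 236.7 in wild-type lungs. The part of these cells in the values of the blood cell integrins was not tested.

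The 9 genes too dim to test, with a mean signal under about 37.2, were Itga4, Itgae, Itgam, Itgb2l, Itgb3, Itgb4, Itgb7, Itgbl1 and Lama1. Their signals on the 4 arrays ran from 1.1 (Lama1) to 36.7 (Itga4). Itga4, the receptor subunit for VCAM1 on leukocytes, had the largest difference of them, at 4.7 and 5.4 in Sftpc-Nmyc lungs and 36.7 and 15.5 in wild-type lungs. Fitted with no filter it stood at -1.44 ± 0.40 and was not called (limma adjusted p = 0.066), and the other 8 had adjusted p-values from 0.40 to 0.88. In that fit Itgb2l (0.34 ± 0.69), Itgb4 (0.32 ± 0.28), Itgae (0.16 ± 0.56) and Itgam (0.13 ± 0.28) had positive log2 fold changes. Those of Itgb3, Itgbl1, Lama1 and Itgb7 were negative, so the negative direction of the tested genes did not hold for every dim one. Over all 33 genes and on the quantile-normalized scale, the groups did not overlap in 25 with Sftpc-Nmyc below wild type, where 31.0% of all measured genes did so, and in 2 with Sftpc-Nmyc above (Itgam, whose deposited signals do overlap at 9.5 and 10.8 in Sftpc-Nmyc lungs and 9.9 and 10.1 in wild-type lungs, and Itgb4), beside 28.4% of all measured genes.

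Ordered by size among the 24, the largest falls were those of Lama4, Lamb1, Itga9 and Lama3, and the smallest differences those of Lamb2, Lamb3, Itgb5 and Lama5. The place of Itgb5 rests on its brightest probe set, and with the mean of all its probe sets it stood at -0.95. Neighbours in this order mostly differed by less than their standard errors, whose median was 0.21. Across the 24 genes, fold change and mean level had a Spearman correlation of 0.29, beside 0 across all 8675 genes. These are descriptions across genes on 4 shared arrays.

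Other genes of the same adhesion system were lower too, as counted on lists written for this comparison and read beside the 15.7% of all genes called lower. Of 23 tested integrin activators and adhesion adaptors, 12 were lower and 0 higher, with a median of -0.59. Lims2, an adaptor of the integrin-linked kinase complex, fell most, with 36.4 and 47.7 in Sftpc-Nmyc lungs and 280.7 and 345.5 in wild-type lungs (-2.71 ± 0.20, limma adjusted p = 0.00022). Tns1, tensin, which ties integrins to actin, fell by 1.24 ± 0.14 and Zyx, a sensor of tension at adhesions, fell by 0.91 ± 0.12 on the log2 scale. Ilk, integrin-linked kinase, and its partner Parva were not called, at -0.42 ± 0.15 and -0.41 ± 0.17. Without wild-type replicate 2 the count of the list was 7.

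Of 19 other basement membrane components tested, 11 were lower and 1 higher, with a median of -0.78. Col4a1, a chain of the collagen IV network that lies beside laminin, had 2103.8 and 1881.4 in Sftpc-Nmyc lungs, against 3638.9 and 4259.7 in wild-type lungs (-1.16 ± 0.10, limma adjusted p = 0.00043). Col4a3, a collagen IV chain of alveolar and kidney basement membrane, fell by 2.10 ± 0.21 and Sparc, a collagen-binding matrix protein, fell by 0.85 ± 0.09 on the log2 scale. Smoc2, a SPARC-related matrix protein, was the 1 that rose, by 0.87 ± 0.18 (limma adjusted p = 0.0094). Ntn1 and Hspg2, the genes of netrin and of perlecan, were not called, at -0.86 ± 0.29 and -0.31 ± 0.14.

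Among 19 tested integrin ligands 15 were lower and 1 was higher, with a median of -0.95. Postn, a fibroblast matrix protein, had 339.5 and 310.7 in Sftpc-Nmyc lungs, against 1359.9 and 1127.4 in wild-type lungs (-1.94 ± 0.15, limma adjusted p = 0.00029). Ccn2, a matricellular protein, fell by 2.02 ± 0.15 and Tgfb1, whose latent form is a ligand of Itgav integrins, fell by 1.76 ± 0.17 on the log2 scale. Cdh1, E-cadherin, the ligand of Itgae, rose by 0.99 ± 0.17 (limma adjusted p = 0.0047). Col1a1 and Ltbp1 were not called, at -0.52 ± 0.18 and -0.26 ± 0.30.

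Hemidesmosome and epithelial anchoring genes gave 3 lower and 1 higher of 6 tested, with a median of -0.40. Dst, which links Itgb4 complexes to keratin, fell by 1.31 ± 0.18, Cd151, a tetraspanin that binds Itga3 and Itga6, fell by 0.81 ± 0.14 and Col7a1, of anchoring fibrils, fell by 0.68 ± 0.20, while Krt15, a basal-layer keratin, rose by 1.13 ± 0.29. Dsp and Plec, of desmosomes and hemidesmosomes, were not called, at 0.32 ± 0.17 and -0.13 ± 0.13. The count of 4 was 2 without wild-type replicate 2 or Sftpc-Nmyc replicate 1. Npnt and Cd151 each stand on 2 of these 4 lists, Postn, Col1a1, Col1a2 and Col3a1 are also counted among the fibroblast markers described next, and Cdh1 among the pan-epithelial ones.

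Marker genes of several cell types moved in the direction of the laminin and integrin genes. The counts of these and of the epithelial and proliferation lists are read beside all genes, with 15.7% called lower and 14.7% higher. All 12 endothelial markers were lower (summed signal 4112 and 4077 in Sftpc-Nmyc lungs, against 10090 and 10830 in wild-type lungs, median log2 fold change -1.29), which stands beside the fall of Lama4. Of 11 fibroblast markers 8 were lower (summed signal over 12 measured 12210 and 12620 in Sftpc-Nmyc lungs, against 20620 and 21900 in wild-type lungs, median -0.94), beside Lama2 and Itga8. Smooth muscle markers were lower in 4 of 7 (summed over 9 measured 1924 and 2501 in Sftpc-Nmyc lungs, against 3918 and 3730 in wild-type lungs) and cardiac markers in 8 of 9 (summed over 10 measured 654.5 and 853 in Sftpc-Nmyc lungs, against 3474 and 2285 in wild-type lungs), beside Itga7. No marker of these lists was at 1 or under on every array.

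Epithelial markers split. Pan-epithelial markers were higher in 6 of 14 and lower in 0, with a median of 0.42 and summed signals of 11830 and 11600 in Sftpc-Nmyc lungs, against 8422 and 8892 in wild-type lungs. Alveolar type I markers were lower in 7 of 8, with a median of -1.57 and summed signals of 9020 and 6432 in Sftpc-Nmyc lungs, against 15270 and 15230 in wild-type lungs. Type II markers were lower in 9 of 9, with a median of -3.18 and summed signals of 9291 and 6858 in Sftpc-Nmyc lungs, against 32880 and 38770 in wild-type lungs. The epithelial chains Lama3, Itgb6 and Itga3 were lower while 0 of 14 pan-epithelial markers were called lower, and Lama5 and Lamb3 were not called. Proliferation markers, higher in 8 of 8, went the opposite way. The part of any of these cell types in the laminin and integrin values was not tested.

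**Figure D4:**
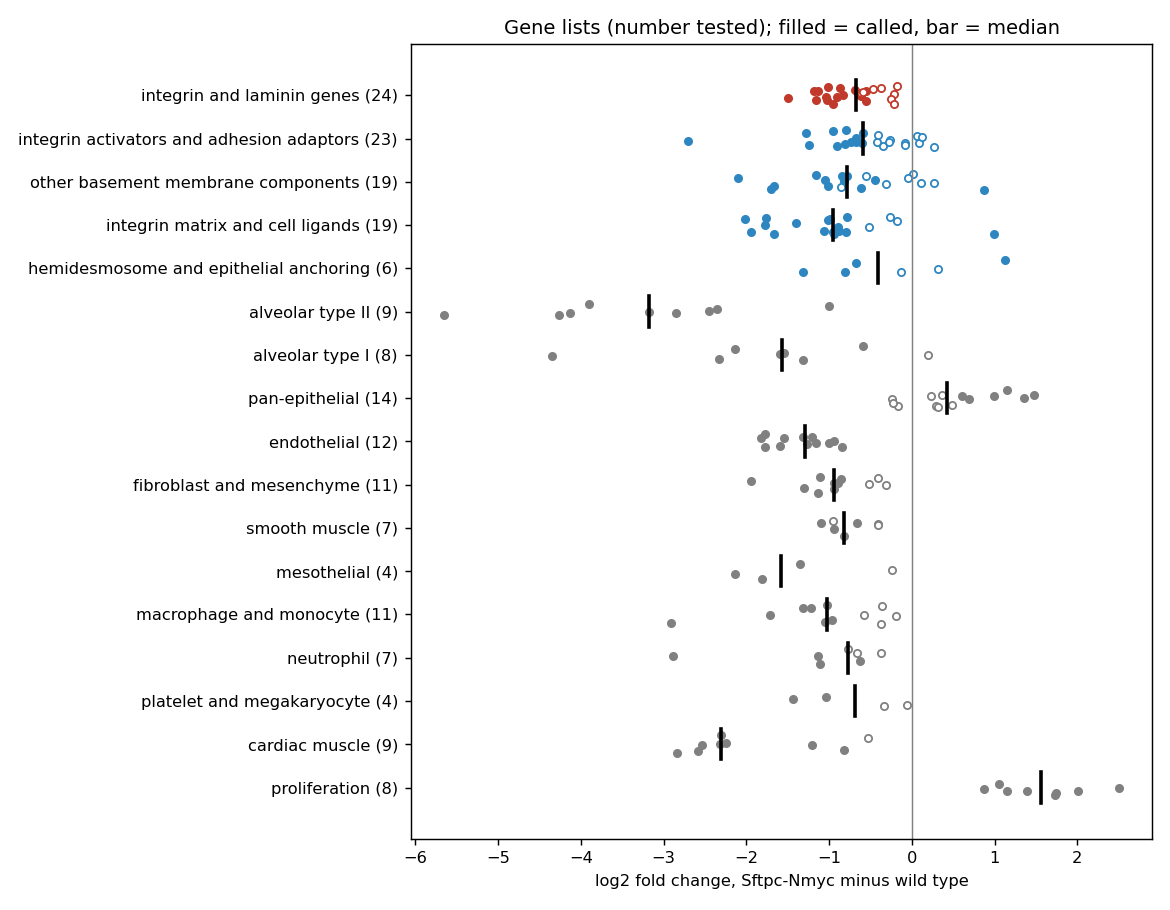
Log2 fold change, Sftpc-Nmyc minus wild type, of each tested gene of the integrin and laminin set (top), of 4 lists of related adhesion genes and of marker lists with at least 4 tested genes, filled where called and with a bar at the median. The integrin and laminin genes centre at -0.67, between the endothelial markers at -1.29 and the pan-epithelial markers at 0.42.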

How the data were processed

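The deposited values were linear intensities for each probe set on each array, from biotin-labelled total RNA of whole lung, per the labels. The authors' software and scaling were not given in the sources used here. Each array has a mean of 150.05 without its highest and lowest 2%. Of 22690 probe sets, 64 were controls, 20380 had 1 symbol, 691 several and 1555 none in the platform annotation, and 20351 matched RefSeq (GRCm38.p6) by gene identifier. Values under 1 were set to 1, 5 was added, and log2 values were quantile normalized over non-control probe sets. Because of the added 5, the log2 fold changes printed here understate the change of dim genes. Each gene was read from its probe set of highest mean over the 4 arrays, genes under the 30th percentile of the mean were left out, and limma 3.58.1 (R 4.3.3, lmFit and eBayes with trend, group as the only term) was fitted over 8675 genes, and likewise over 14266 probe sets, with Benjamini-Hochberg adjustment. Errors after ± are limma standard errors (median 0.19 over all genes). The fit was tested on simulated data. The number of arrays limits the precision.

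All members were named. Of the adhesion lists, up to 3 genes called in each direction and 2 uncalled with the largest moderated statistic were named. The members and lists were chosen with earlier results of these data known. Replicate numbers are shared between groups in the titles, but deviations from the group means of same-numbered arrays correlated at -0.023, so the numbers were not taken as pairs. The 12 alternatives covered the offset, filter, normalization, probe set summary, variance model, replicate block and leaving out each array.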

Additional observations from a re-analysis of the deposited data

How the results depend on the processing

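No alternative called an integrin or laminin gene higher, and 3 of 16 called genes (Lama3, Lama4 and Lamb1) were called under all 12. Of 187 refits of called genes, 133 were still called, 54 were not and 0 changed sign. The 1 sign change was that of the uncalled Itgb5, to 0.23 when wild-type replicate 1 was left out, with -0.68 in the fit that left out wild-type replicate 2. Leaving out 1 array gave 4 to 10 genes lower in place of 16, with 1 to 6 integrins in place of 11 and 3 to 5 laminins in place of 5, 10 to 18 probe sets in place of 25, and 1375 to 1899 of all genes in place of 2636. It gave 7 to 10 adaptors in place of 12 and 2 to 3 hemidesmosome genes in place of 4. With no filter 8 genes (4 of them integrins), 16 probe sets and 2 hemidesmosome genes were called. With a filter at the 50th percentile 11 of 17 tested integrin and laminin genes were called lower, 7 of them integrins, beside 19.6% of all genes. With the mean of all probe sets 2 hemidesmosome genes were called. The replicate block left 6 integrins and 11 genes lower, beside 13.1% of all genes, and changed no other count by over 1.5 times. The median of the tested genes was -0.59 with an offset of 32, -0.59 with no filter, -0.87 with the mean of all probe sets, and -0.76 to -0.66 without 1 array. The fits without 1 array have fewer samples. For the other alternatives the cause was not tested. The median of all genes ran from -0.04 to -0.01 over the alternatives. The common scale of the deposited arrays and the normalization hold it near 0, so it cannot show a change in total RNA. Signals under 73.4 are hard to tell from background.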
